A study of Mus musculus with 6 samples.

Results

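The genes described here encode 7 chains of the receptors through which helper T cells sense the cytokines that steer their differentiation: Il4ra, Il21r, Il6ra, Il6st, Il7r, Il17rb and Il10ra. Accessible chromatin around them was measured by ATAC-seq, in which the Tn5 transposase cuts and tags open DNA, in Th9, Th2 and Th17 cells. For each gene a window was drawn from 30 kb before to 30 kb after the gene body, and every peak of the 6 deposited peak lists that fell in a window was kept. Where peaks of different lists overlapped or adjoined they were merged to form a region, which a library was said to call if any of its own peaks reached it by 1 bp or more. The windows held 90 of the 236017 regions of the genome. There were 13 regions in the Il4ra window, 17 at Il21r, 18 at Il6ra, 14 at Il6st, 9 at Il7r, 9 at Il17rb and 16 at Il10ra. Il4ra and Il21r are neighbours on chromosome 7, and 6 regions lay in both of their windows.

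Naive CD4 T cells from wild-type C57BL6/J mice, with spleen as the labelled tissue, were stimulated through CD3 and CD28 and cultured under 3 conditions. Th2 cells received IL-4, IL-2 and an antibody against IFN-γ, and Th9 cells received the same with TGF-β1 added. Th17 cells received IL-6, TGF-β1, IL-23 and IL-1β with antibodies against IFN-γ, IL-4 and IL-2. There were 2 libraries per subset (replicates 1 and 3 in the labels), taken at the end of culture. Adult mice of both sexes were used. It is not stated whether the 2 libraries of a subset came from separate mice, so p-values measure only the spread between these libraries, which may be technical. The subsets share no untreated control and differ in several cytokines and antibodies at once.

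IL-4Rα is the signalling chain for IL-4, and with the common γ chain it activates STAT6 during Th2 and Th9 differentiation. IL-6 binds the IL-6Rα chain and signals through gp130, the product of Il6st, to STAT3, which drives the Th17 program, and IL-21 acts on the same STAT through IL-21R. IL-7Rα pairs with the common γ chain and maintains naive and memory T cells, IL-17RB is the binding chain for IL-25, and IL-10Rα carries the inhibitory signal of IL-10.

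The lists held from 100317 to 142213 peaks, which covered from 80.7 to 117.5 Mb over all chromosomes listed. The lists hold no reads, so depth was recovered from the peak values as the background coverage of each library, the mean number of fragments over a position. It was 5.65 in Th9 replicate 1, 12.1 in Th9 replicate 3, 11.2 and 15.2 for the Th2 libraries and 14.4 and 17.7 for the Th17 libraries. The lowest fold enrichment in a list, its detection limit, was 2.11 in Th9 replicate 1 and from 1.71 to 1.83 in the other libraries. An absent peak is therefore an absent call at that limit, not closed chromatin. Th9 replicate 1 had the highest such limit, although its list held the most peaks (142213). Strength is given as the percentile of a peak's fold enrichment within its own list, so 90 means that the peak was at least as strong as 90% of the peaks of that library. Of the T cell markers, Cd3e, Cd3g, Cd5 and Thy1 had a promoter peak in 6 of 6 libraries, while Cd4 had one in 4. Of the markers of other cells, Cd14 had a promoter peak in 3 libraries (both Th2 and Th17 replicate 3), and Cd79a, Ms4a1, Csf1r, Lyz2, Ncr1 and Cd8a in 0. Cd14 marks monocytes, and the part of such cells in the Th2 and Th17 values below was not tested.

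The regions that separated the subsets by presence or absence of a call were few, and the sequences of 8 of them are given as examples. Each sequence is the 300 bp at the centre of its region, or the whole region where that is shorter, read 5′ to 3′ on the plus strand of GRCm38.p6, the assembly that mm10 displays. Distances are from the annotated gene start to the centre of the region, positive in the direction of transcription. Capitals mark matches to any of 5 short words searched on both strands. TTCNNNGAA is bound by STAT dimers, and the same word with 4 Ns by STAT6. The others are TGANTCA for AP-1 with BATF, then AGATAA for GATA factors and lastly TGTGGT for RUNX factors. The first 5 had a call in every Th9 and Th2 library but no Th17 library:
Il10ra +40.0 kb, chr9:45228987-45229286: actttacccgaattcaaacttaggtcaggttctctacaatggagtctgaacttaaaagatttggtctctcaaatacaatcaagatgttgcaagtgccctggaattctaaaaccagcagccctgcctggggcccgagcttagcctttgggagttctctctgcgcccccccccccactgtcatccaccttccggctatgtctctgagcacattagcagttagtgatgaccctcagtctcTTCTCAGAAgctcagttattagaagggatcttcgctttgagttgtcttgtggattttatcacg
Il10ra −3.2 kb, chr9:45272200-45272499: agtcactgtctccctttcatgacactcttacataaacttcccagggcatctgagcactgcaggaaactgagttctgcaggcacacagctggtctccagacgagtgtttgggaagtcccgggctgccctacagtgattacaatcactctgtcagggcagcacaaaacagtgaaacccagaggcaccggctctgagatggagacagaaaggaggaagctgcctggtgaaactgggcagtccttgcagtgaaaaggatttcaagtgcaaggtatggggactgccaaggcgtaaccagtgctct
Il7r +9.6 kb, chr15:9520413-9520712: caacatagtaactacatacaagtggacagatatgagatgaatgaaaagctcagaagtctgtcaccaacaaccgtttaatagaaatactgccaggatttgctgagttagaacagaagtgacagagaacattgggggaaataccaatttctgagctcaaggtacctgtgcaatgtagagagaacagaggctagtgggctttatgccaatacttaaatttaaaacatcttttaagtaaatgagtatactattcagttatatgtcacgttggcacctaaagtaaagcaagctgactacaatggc
Il6st −28.5 kb, chr13:112435467-112435766: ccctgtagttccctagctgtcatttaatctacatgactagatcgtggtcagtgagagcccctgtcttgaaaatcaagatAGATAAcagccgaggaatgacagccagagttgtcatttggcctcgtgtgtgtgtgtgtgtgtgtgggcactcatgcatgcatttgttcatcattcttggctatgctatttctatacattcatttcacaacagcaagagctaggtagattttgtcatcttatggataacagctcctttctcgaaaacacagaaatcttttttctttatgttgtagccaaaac
Il6ra +29.7 kb, chr3:89883332-89883631: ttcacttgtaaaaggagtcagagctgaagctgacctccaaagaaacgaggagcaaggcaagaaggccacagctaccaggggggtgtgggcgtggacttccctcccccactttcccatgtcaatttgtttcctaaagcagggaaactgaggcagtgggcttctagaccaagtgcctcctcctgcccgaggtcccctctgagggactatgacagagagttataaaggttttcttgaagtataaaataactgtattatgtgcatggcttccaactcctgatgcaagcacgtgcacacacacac
Called in both Th9 libraries, both Th2 libraries and both Th17 libraries alone, in that order, were these:
Il10ra +12.4 kb, chr9:45256638-45256853: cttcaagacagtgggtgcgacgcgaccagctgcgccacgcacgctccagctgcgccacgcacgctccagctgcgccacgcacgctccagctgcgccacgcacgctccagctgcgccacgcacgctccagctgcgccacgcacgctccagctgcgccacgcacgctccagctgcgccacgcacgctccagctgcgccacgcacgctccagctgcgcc
Il21r +58.0 kb, chr7:125661286-125661558: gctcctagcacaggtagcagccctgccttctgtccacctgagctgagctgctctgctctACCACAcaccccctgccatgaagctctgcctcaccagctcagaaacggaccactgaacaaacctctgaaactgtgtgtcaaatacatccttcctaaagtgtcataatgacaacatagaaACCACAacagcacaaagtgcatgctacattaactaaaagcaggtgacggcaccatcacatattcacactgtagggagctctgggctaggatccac
Il4ra −10.0 kb, chr7:125541935-125542234: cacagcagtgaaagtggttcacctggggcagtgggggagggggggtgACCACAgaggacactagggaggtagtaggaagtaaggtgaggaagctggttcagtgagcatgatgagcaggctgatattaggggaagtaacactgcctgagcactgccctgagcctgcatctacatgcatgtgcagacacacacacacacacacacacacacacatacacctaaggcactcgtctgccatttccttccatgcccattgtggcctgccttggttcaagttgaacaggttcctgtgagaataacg
The region 40.0 kb from the Il10ra start held 1 match to the STAT word, the Il6st region 1 match to the GATA word, the Il21r region 2 matches and the Il4ra region 1 match to the RUNX word. The Th9 region in Il10ra was a tandem repeat: its bases matched those 20 bp further on at 90.3% of 196 positions. At a −log10 q of at least 5, this region and the Il4ra region were called in no library.

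Matches to these words were counted in the central 300 bp of the 72 receptor regions at least that wide, and of 173588 such regions genome-wide. The STAT dimer word was found in 6.94% of the receptor regions against 9.08% of all, and the STAT6 word in 8.33% against 6.82%. The AP-1 word was found in 16.7% against 11.8%, the GATA word in 15.3% against 12.9% and the RUNX word in 26.4% against 22.3%. These shares are a description of 72 windows, and a match is not a bound site.

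Many regions of the receptor windows were called by every library, as the map of peaks around the 7 genes shows. All 6 libraries called 36 (40.0%) of the 90, where the share over all regions was 21.4%. A further 6 (6.67%) had a call in every Th9 and Th2 library but no Th17 library, against 2.0% of all regions. Both Th9 libraries alone called 1 region, where the share of all regions was 1.31%, both Th2 libraries alone called 3 (2.87% of all) and both Th17 libraries alone called 3 (1.70% of all). All Th2 and Th17 libraries alone called 0 regions (1.55% of all), as did all Th9 and Th17 libraries alone (0.296% of all). Of the rest, 19 were called in a single library, against 37.2% of all regions, and 22 in other mixtures, against 31.7%. By annotation 12 regions touched a promoter, 18 an exon, 27 an intron alone and 33 were intergenic. Of the 12 at promoters, 9 were called in all 6 libraries, and the share over all promoter regions was not counted. Leaving out 1 library raised the number called in Th9 alone to 10 (without Th9 replicate 1) or 4 (without Th9 replicate 3), and the number called in Th2 alone to 8 (without Th2 replicate 1). The Th9 and Th2 group held between 6 and 8 regions whichever library was left out. With a library left out fewer libraries have to agree, so the counts of these groups can stay or rise but cannot fall. Their lower ends are therefore no sign of stability. The raised Th9 and Th2 counts accept calls of the single library kept for that subset. These numbers also depended on how strong a peak had to be. With a fold enrichment of at least 4, the Th9 and Th2 group held 0 regions and the group called in Th9 alone held 6.

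**Figure D1:**
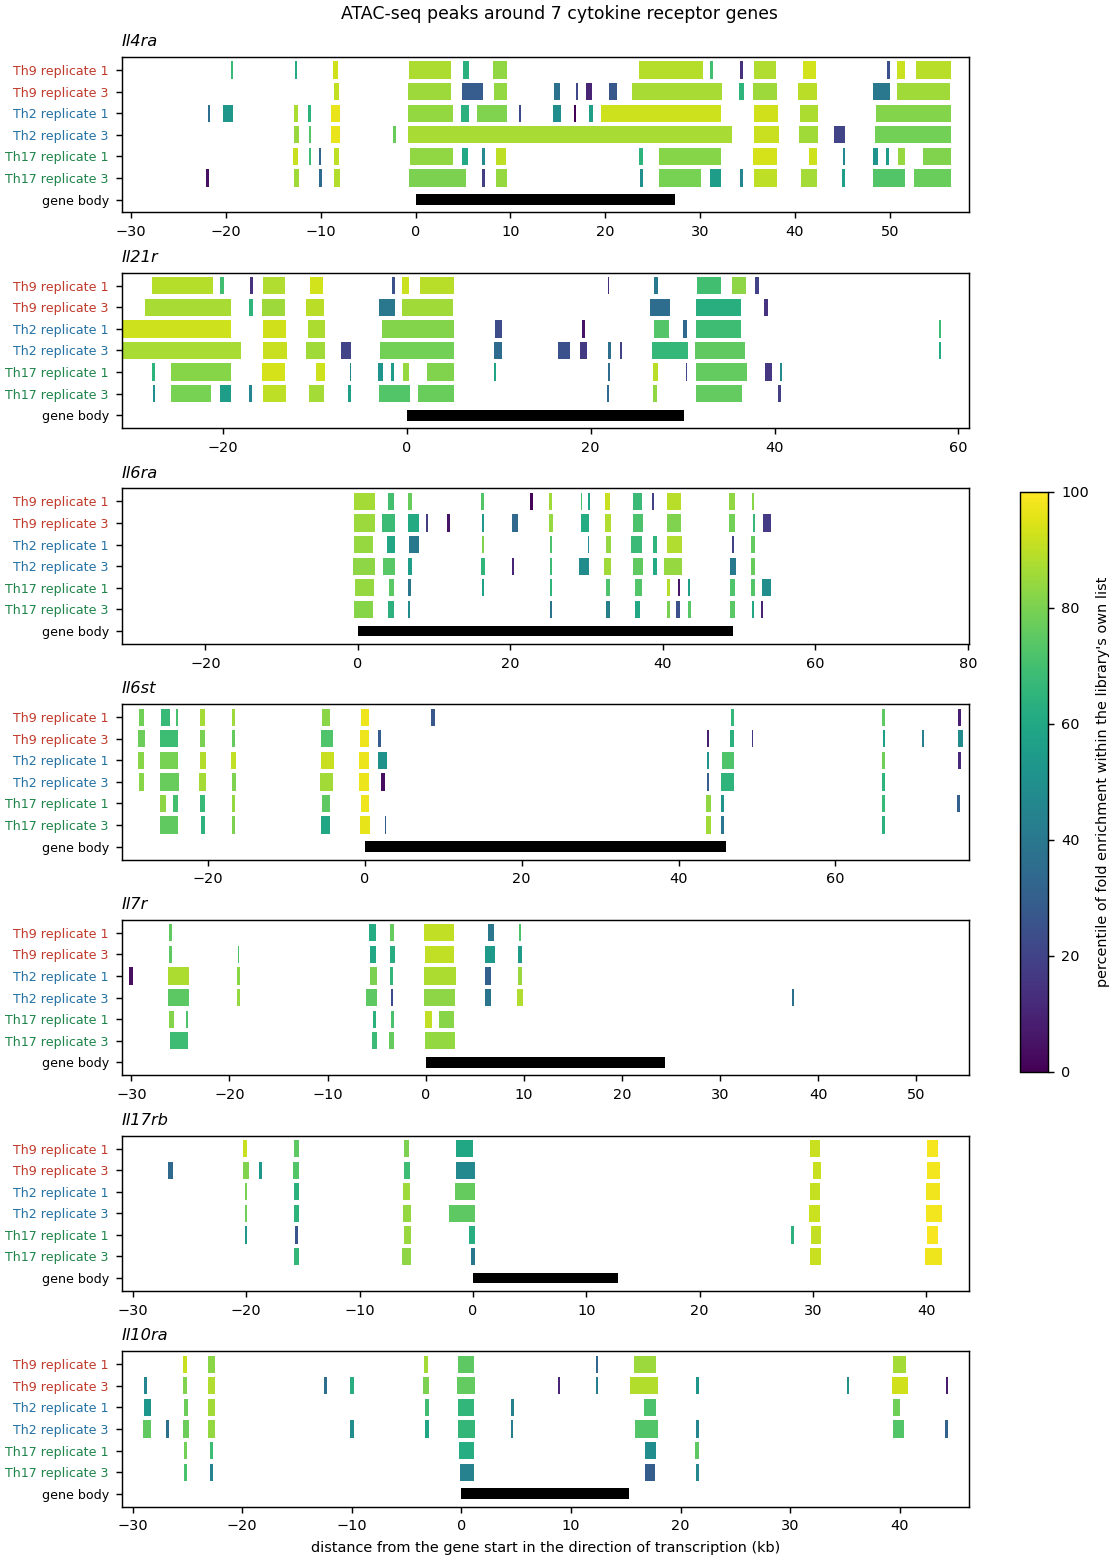
Peaks of each library across the window of each of the 7 genes, as bars placed by distance from the gene start in kb along the direction of transcription (x axis) and coloured by percentile within the library's own list, with 1 line per library and the gene body in black. The promoter peak is present in 6 of 6 libraries at each gene, Il4ra lies under the widest peaks, and the 2 Th17 lines at Il10ra lack the peaks at −3.2 and +40.0 kb.

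Each of the 7 promoters, taken as 1000 bp before to 100 bp after an annotated start, carried a peak in 6 of 6 libraries. The share of all genes with such a peak in every library was not counted. The promoter of Il6st was the strongest, from percentile 96.3 to 97.6. Il7r followed at 82.9 to 90.6, then Il6ra at 81.6 to 86.6, Il4ra at 80.2 to 87.7 and Il21r at 72.8 to 92.2, and these 4 ranges overlapped. Il10ra lay lower, at 75.2 and 76.1 (Th9), 65.7 and 66.1 (Th2) and 62.1 and 43.8 (Th17), so that the Th9, Th2 and Th17 values did not overlap. Il17rb was at 59.8 and 47.2 (Th9), 76.3 and 75.3 (Th2) and 62.9 and 40.4 (Th17), and both Th2 values were above the other 4. That peak also covers the start of the divergent gene Chdh, and the 2 genes cannot be told apart by it. At Il6ra, the chain that sets which cells can bind IL-6, the promoter was at 84.3 and 81.6 in Th17, the subset cultured with IL-6, while Th2 was at 84.3 and 83.1 and Th9 at 86.6 and 85.0, so Th17 and Th2 overlapped.

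By the 6 promoter percentiles, the protein-coding genes most like Il6st were Coq10b, at a Euclidean distance of 0.415 percentile points, and Cops7a at 0.736. Il4ra was nearest to Hsh2d (1.89) and Adcy7 (3.06), Il6ra to Mdp1 (2.80) and Tnfrsf25 (2.88), and Il21r to Klre1 (4.45) and Anxa4 (4.53). Il7r was nearest to Rfng and Gps1, both at 1.65 with identical values, and Il10ra to BC051142 (7.96) and Sp9 (8.46). Il17rb was nearest to Chdh at distance 0, since they share a peak, and then to Pdx1 (10.2). The measure covers 6 libraries only.

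Il4ra (chr7:125552120-125579474, plus strand) lay within 1 joined region of 34109 bp, chr7:125551330-125585438, which ran from the promoter past the end of the gene. How much of it was called differed by library. Th9 covered 13637 and 19964 bp of it with 5 and 8 peaks, Th2 covered 23126 bp with 8 peaks in replicate 1 and all 34109 bp with a single peak in replicate 3, and both Th17 libraries used 6 peaks over 13539 and 13300 bp. Both Th2 values were above the other 4 in bp. Per Mb covered in the library, Th9 replicate 3 (248 bp, from the list that covered the fewest Mb) lay between the Th2 values of 197 and 315. The widest peak in the region was 6701 and 9407 bp (Th9), 12674 and 34109 bp (Th2) and 6604 and 6088 bp (Th17). Ordered by width, the Th2 replicate 3 peak was number 21 of 120198 peaks in its list, the Th2 replicate 1 peak number 117, the Th9 peaks numbers 260 and 119, and the Th17 peaks numbers 354 and 429.

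Upstream of Il4ra, the region at −8.5 kb was called in all 6 libraries, at percentiles 92.9 and 90.8 (Th9), 96.5 and 96.8 (Th2) and 90.1 and 88.4 (Th17). Both Th2 values were above the rest and both Th17 values below. By limma, Th2 exceeded Th17 by 7.38 ± 1.74 percentile points (SE; adjusted p = 0.0658), and Th9 minus Th2 was −4.79 ± 1.74 (adjusted p = 0.392), so neither passed 0.05. A further upstream region, at −12.6 kb, was chosen after its values were seen. It was at 60.2 in Th9 replicate 1 and uncalled in Th9 replicate 3, whereas Th2 stood at 87.2 and 84.7 and Th17 at 91.6 and 85.9. The region at −10.0 kb, also intergenic, was called in Th17 alone, at 32.4 and 34.6. It was lost from both Th17 libraries when a fold enrichment of at least 2.2 was required.

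Between Il4ra and Il21r, 2 regions called in all 6 libraries lay in both windows. The one 36.9 kb from the Il4ra start was at 88.3 and 85.4 (Th9), 92.9 and 91.7 (Th2) and 93.4 and 89.9 (Th17), with a Th9 minus Th2 difference of −5.43 ± 2.45 (adjusted p = 0.488). The one at 41.4 kb was at 93.1 and 89.5 (Th9), 87.7 and 85.9 (Th2) and 92.5 and 86.5 (Th17). In the first, both Th9 values were below both Th2 and both Th17 values, and Th2 and Th17 overlapped. In the second, both Th9 values were above both Th2 values, and Th17 overlapped each of them.

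Il21r (chr7:125603429-125633570, plus strand) encodes the receptor chain for IL-21, a cytokine made by Th17 and follicular helper cells. The lowest p in its window was not at the promoter but over the last exon, 28.5 kb from the start (chr7:125629860-125633980). By its highest peak in each library, this region stood at percentiles 39.9 and 35.5 (Th9), 73.1 and 66.5 (Th2) and 89.7 and 83.6 (Th17). The 3 subsets did not overlap and Th17 was highest. By extent Th17 was not highest: peaks covered 394 and 2234 bp of its 4121 bp in Th9, 2035 and 3885 bp in Th2 and 764 and 496 bp in Th17. By limma, Th9 minus Th17 was −49.0 ± 9.85 percentile points (unadjusted p = 0.000374, adjusted p = 0.0511), just outside the threshold, and Th9 minus Th2 was −32.1 ± 9.85 (adjusted p = 0.327). With the mean percentile of all its peaks, weighted by width, Th9 minus Th17 was −40.8 ± 10.7 (limma, adjusted p = 0.126). By highest peak, it was the 1 region of the 36 called in all 6 libraries in which both Th17 values lay above the other 4, a pattern held by 7.71% of such regions genome-wide.

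At the Il21r promoter the order was not the same: the joined region there was at 92.2 and 85.9 (Th9), 81.4 and 78.8 (Th2) and 84.1 and 77.3 (Th17), and Th9 was above the rest. In the neighbouring gene Gtf3c1, which encodes a subunit of the RNA polymerase III factor TFIIIC, an intronic region at +58.0 kb was called in both Th2 libraries alone (68.2 and 61.1). An exonic region of Gtf3c1 at +40.6 kb was called in both Th17 libraries alone (47.4 and 18.7). Inside Il21r, an exonic region at +19.2 kb was called in both Th2 libraries alone, near the bottom of their lists (4.7 and 16.7). The +58.0 kb region was still called in both Th2 libraries and nowhere else at a −log10 q of at least 5, and the other 2 were then called in no library.

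Il6ra (chr3:89864059-89913196, minus strand) encodes the chain that binds IL-6. Along its long body, 2 intronic regions were weaker in both Th17 libraries than in the other 4. The region at +32.7 kb was at percentiles 91.7 and 88.1 (Th9), 84.0 and 85.6 (Th2) and 72.1 and 42.7 (Th17). Th9 minus Th17 was 32.5 ± 8.57 (adjusted p = 0.120), and Th2 minus Th17 was 27.4 ± 8.57 (adjusted p = 0.169). The region at +25.3 kb was at 85.7 and 84.3 (Th9), 71.6 and 68.0 (Th2) and 65.1 and 37.9 (Th17), with Th9 minus Th17 at 33.5 ± 10.2 (adjusted p = 0.176). In both, Th17 replicate 3 was far below Th17 replicate 1. With Th17 replicate 1 left out, the +32.7 kb differences became 47.2 ± 6.76 (adjusted p = 0.0182) and 42.1 ± 6.76 (adjusted p = 0.0186). With Th17 replicate 3 left out they were 17.8 ± 4.97 (adjusted p = 0.291) and 12.7 ± 4.97 (adjusted p = 0.555), and the +25.3 kb difference was 19.9 ± 8.51 (adjusted p = 0.668). Each of these values rests on a single Th17 library.

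Between those 2 regions, the intronic region at +29.7 kb was called at 70.4 and 61.6 (Th9) and 47.6 and 48.1 (Th2), and in no Th17 library. It was called in 2 libraries at a −log10 q of at least 5. At the far end of the gene the picture was different. The region at +49.1 kb, which overlaps the end of the last exon, was at 83.5 and 78.6 (Th9), 19.8 and 40.4 (Th2) and 72.4 and 74.4 (Th17). Both Th2 values were below the rest: Th9 minus Th2 was 51.0 ± 11.4 (adjusted p = 0.266) and Th2 minus Th17 was −43.3 ± 11.4 (adjusted p = 0.0991). A region at +43.5 kb that lies wholly in an annotated untranslated exon was called in Th17 alone, at 56.0 and 73.7. With a −log10 q of at least 5 it was called in 1 library.

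**Figure D2:**
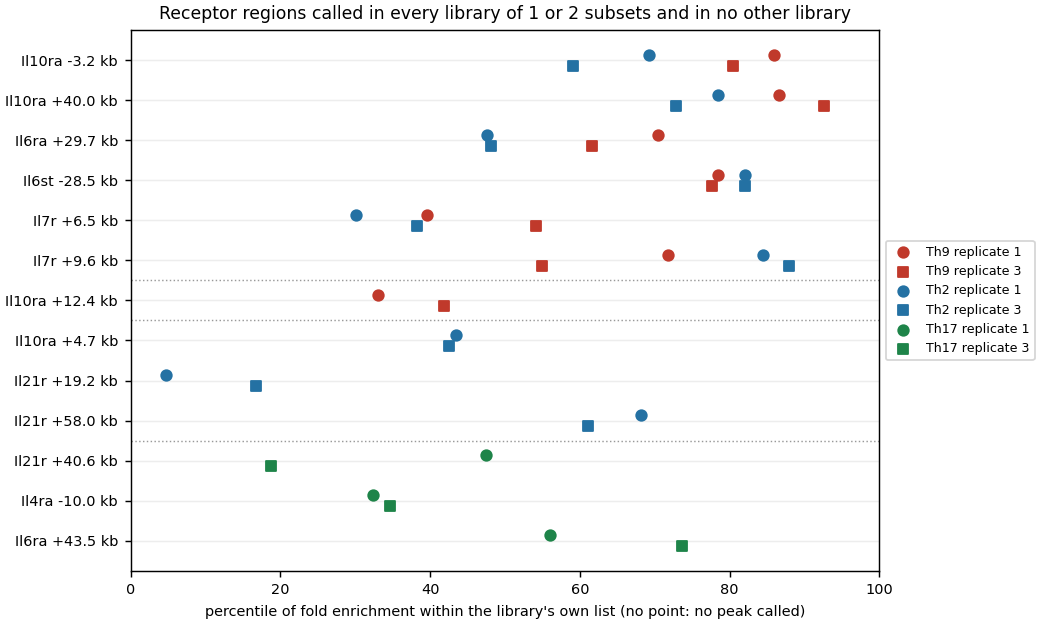
Percentile of fold enrichment within the library's own list (x axis) for the 13 receptor regions called in every library of 1 or 2 subsets and in no other library, named by gene and distance of the centre from the gene start (y axis). Circles are replicate 1, squares replicate 3, and colours are subsets; the Il6st region at −28.5 kb and the Il10ra regions at −3.2 and +40.0 kb sit high in all 4 Th9 and Th2 libraries, while the Il21r region at +19.2 kb sits at 4.7 and 16.7.

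Il6st (chr13:112464070-112510086, plus strand) encodes gp130, the chain that IL-6 shares with its relatives. Far upstream, at −28.5 kb in an intron of the gene model Gm48879, a region was called at 78.4 and 77.6 (Th9) and 82.1 and 82.0 (Th2), and in neither Th17 library. It was 881 bp wide in the joined lists, and it was still called in the same number of libraries, 4, at a −log10 q of at least 5 and at a fold enrichment of at least 2.2. Nearer the gene, the region at −20.7 kb was called in all 6 libraries, at 86.6 and 80.0 (Th9), 88.4 and 86.7 (Th2) and 67.5 and 64.4 (Th17). Th2 minus Th17 was 21.6 ± 5.66 (adjusted p = 0.0967), and Th9 minus Th17 was 17.4 ± 5.66 (adjusted p = 0.207). The region at −4.8 kb was at 82.7 and 72.4 (Th9), 91.6 and 86.0 (Th2) and 75.0 and 59.7 (Th17). There Th2 minus Th17 was 21.5 ± 7.02 (adjusted p = 0.191; 13.8 ± 6.80 without Th17 replicate 3), and a Th9 and a Th17 library overlapped.

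The opposite order was seen in 1 region at the 3′ end of Il6st, but not in the next. A region at +43.8 kb, wholly within the 3′ untranslated exon and chosen after its values were seen, was at 83.3 and 86.0 in Th17 and at 51.9 and 29.9 in Th2, and in Th9 it was uncalled in replicate 1 and at 9.0 in replicate 3. It was not fitted, since 1 library lacked a value. Further on, the region at +46.3 kb was at 66.7 and 64.0 (Th9), 72.4 and 65.1 (Th2) and 51.5 and 39.0 (Th17), with both Th17 values lowest.

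Il7r (chr15:9505788-9530176, minus strand), the chain that naive T cells use to receive IL-7, had a strong promoter peak in each subset and 2 intronic regions that neither Th17 library called. The promoter region was at 90.6 and 90.6 (Th9), 87.6 and 82.9 (Th2) and 90.4 and 83.6 (Th17), so the subsets overlapped. The intronic region at +9.6 kb was at 71.8 and 54.9 (Th9) and 84.5 and 88.0 (Th2). The other, at +6.5 kb, was weaker, at 39.6 and 54.1 (Th9) and 30.1 and 38.3 (Th2), and it was called in no library at a −log10 q of at least 5. A region at −19.1 kb, also noticed after its values were seen, was at 82.6 and 84.2 in Th2 and at 71.6 in Th9 replicate 3, and uncalled in Th9 replicate 1 and in Th17. The 250 bases before the RefSeq start, which lie under the promoter peak of all 6 libraries, read as follows in the direction of transcription, with a match to the STAT dimer word in capitals, a word held by 7.02% of 32817 RefSeq promoters of that length:
Il7r promoter, chr15:9529877-9530126, minus strand: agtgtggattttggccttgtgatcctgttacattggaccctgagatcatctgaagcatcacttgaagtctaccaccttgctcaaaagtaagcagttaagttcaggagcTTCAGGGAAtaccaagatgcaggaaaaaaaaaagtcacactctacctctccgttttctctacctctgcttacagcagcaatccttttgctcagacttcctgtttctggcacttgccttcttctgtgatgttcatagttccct

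Il17rb (chr14:29996135-30008896, minus strand) encodes the chain through which IL-25 acts on type 2 lymphocytes, and it was the 1 gene of the 7 with no region called in all libraries of 1 or 2 subsets alone. Of its 9 regions, 5 were called in all 6 libraries. Above 90 in every library were 2 regions at the promoters of its neighbours, Selenok at +40.6 kb (97.5 to 98.9) and Actr8 at +30.2 kb (90.7 to 92.0). Upstream, in Chdh introns, the region at −5.9 kb was at 80.2 and 68.5 (Th9), 85.3 and 83.7 (Th2) and 84.7 and 82.9 (Th17). The region at −15.6 kb was at 75.2 and 72.9 (Th9), 63.8 and 64.5 (Th2) and 26.4 and 66.5 (Th17), where the Th17 libraries were far apart. A region at −20.0 kb, at the gene model Gm18760, was at 91.5 and 81.1 (Th9) and 79.4 and 78.5 (Th2), while Th17 replicate 1 was at 53.0 and Th17 replicate 3 had no call. It too was picked out after its values were seen.

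Il10ra (chr9:45253837-45269149, minus strand) encodes the ligand-binding chain for IL-10, the cytokine that restrains T cell and macrophage responses, and 2 of its regions were missing from both Th17 lists while called in the other 4. At −3.2 kb, an intergenic region was at 86.0 and 80.4 (Th9) and 69.2 and 59.1 (Th2), and uncalled in Th17. At +40.0 kb, in an intron of BC049352, a region was at 86.6 and 92.6 (Th9) and 78.5 and 72.8 (Th2), and again uncalled in Th17. Within each of these regions both Th9 values were above both Th2 values. Both were still called in 4 libraries at a −log10 q of at least 5.

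Just past the end of Il10ra, the intergenic region at +16.7 kb was called in all 6 libraries, at 84.8 and 88.6 (Th9), 71.8 and 73.0 (Th2) and 49.1 and 29.6 (Th17), so that the 3 subsets did not overlap. Th9 minus Th17 was 47.4 ± 10.1 (unadjusted p = 0.000614, adjusted p = 0.0615) and Th2 minus Th17 was 33.0 ± 10.1 (adjusted p = 0.158). The region at −22.8 kb was at 82.5 and 88.1 (Th9), 86.0 and 83.9 (Th2) and 68.6 and 45.0 (Th17). There Th9 minus Th17 was 28.6 ± 8.17 (adjusted p = 0.149) and Th2 minus Th17 was 28.2 ± 8.17 (adjusted p = 0.133). At the promoter Th9 minus Th17 was 22.7 ± 10.3 (adjusted p = 0.411). The 2 Th17 libraries were again unequal, with replicate 3 lower in each. The Th17 replicate 3 list was also the shorter, with 100317 peaks against 127073, so a peak of the same rank has a lower percentile in it. The part of list length in these values was not tested. Without Th17 replicate 1 the +16.7 kb difference between Th9 and Th17 was 57.1 ± 10.2 (adjusted p = 0.0377), and those at −22.8 kb were 40.4 ± 7.36 (adjusted p = 0.0413) for Th9 and 40.0 ± 7.36 (adjusted p = 0.0301) for Th2. Without Th17 replicate 3 the same 3 differences were 37.6 ± 9.13 (adjusted p = 0.194), 16.8 ± 6.0 (adjusted p = 0.530) and 16.4 ± 6.0 (adjusted p = 0.487), and the promoter difference was 13.5 ± 10.9 (adjusted p = 0.954). Each of these values rests on 1 Th17 library, so the calls depended on which one was kept. The region at −25.1 kb was at 91.8 and 81.2 (Th9), 77.6 and 77.5 (Th2) and 78.6 and 71.0 (Th17), and there Th2 and Th17 overlapped.

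Inside the gene, an intronic region at +12.4 kb was called in both Th9 libraries alone (33.1 and 41.9). This is the 216 bp tandem repeat shown above, and how many of its reads mapped to a single place is not given in the sources used here. An exonic region at +4.7 kb was called in both Th2 libraries alone (43.4 and 42.5). Neither of these regions was called in any library at a −log10 q of at least 5.

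**Figure D3:**
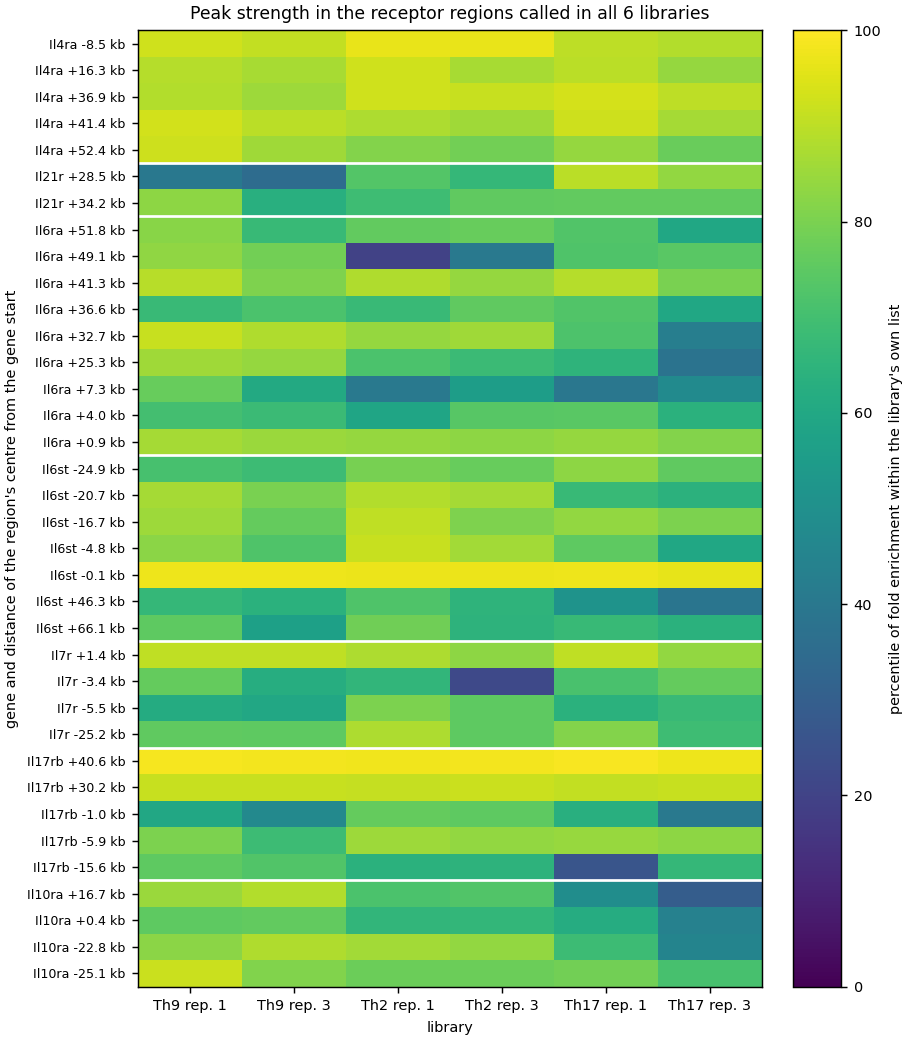
Percentile of fold enrichment within the library's own list (colour) for the 36 receptor regions called in all 6 libraries (rows, named by gene and distance of the centre from the gene start) in each library (columns); regions in both the Il4ra and the Il21r window are listed under Il4ra. The Il6st promoter row is above 96 throughout, the Il21r row at +28.5 kb brightens from Th9 to Th17, and the Il10ra row at +16.7 kb darkens.

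Peak strength was compared across the 36 receptor regions called in all 6 libraries with limma, fitted to the 50461 such regions of the genome on chromosomes 1 to 19 and X, with Benjamini-Hochberg adjustment over all of them. No receptor region passed an adjusted p of 0.05 in any contrast. This count depended on the scale: on quantile-normalized log2 fold enrichments 1 (Th9 against Th2), 5 (Th9 against Th17) and 7 (Th2 against Th17) of the 36 passed. The share of all regions that passed on that scale was not counted, so these counts have no genome-wide value beside them. On percentiles, the share of all regions that passed was 0.00% for Th9 against Th2, 0.709% for Th9 against Th17 and 1.43% for Th2 against Th17. The lowest adjusted p among the receptor regions was 0.266, 0.0511 and 0.0658. At an unadjusted p under 0.05 there were 4, 7 and 7 of the 36, where 10.1%, 12.1% and 12.1% of all regions reached it. Of the 7 in each contrast against Th17, 6 were weaker in Th17, and those contrasts share the Th17 libraries. The directions of all regions that reached that p were not counted. The median difference over the 36 was 0.15 percentile points for Th9 minus Th2, 2.21 for Th9 minus Th17 and 3.10 for Th2 minus Th17, beside −0.52, 0.08 and 0.19 over all regions.

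Both Th17 values lay below the other 4 in 8 of the 36 regions, where the share over all such regions was 10.8%. Of the 8, 3 were at Il10ra (of 4 regions there), 2 at Il6ra, 2 at Il6st and 1 at Il4ra. None was at Il7r, Il17rb or Il21r. At Il7r, 2 regions were missing from both Th17 lists, while at Il10ra 2 were missing and 3 more were called but at lower percentiles in both Th17 libraries than in the other 4.

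**Figure D4:**
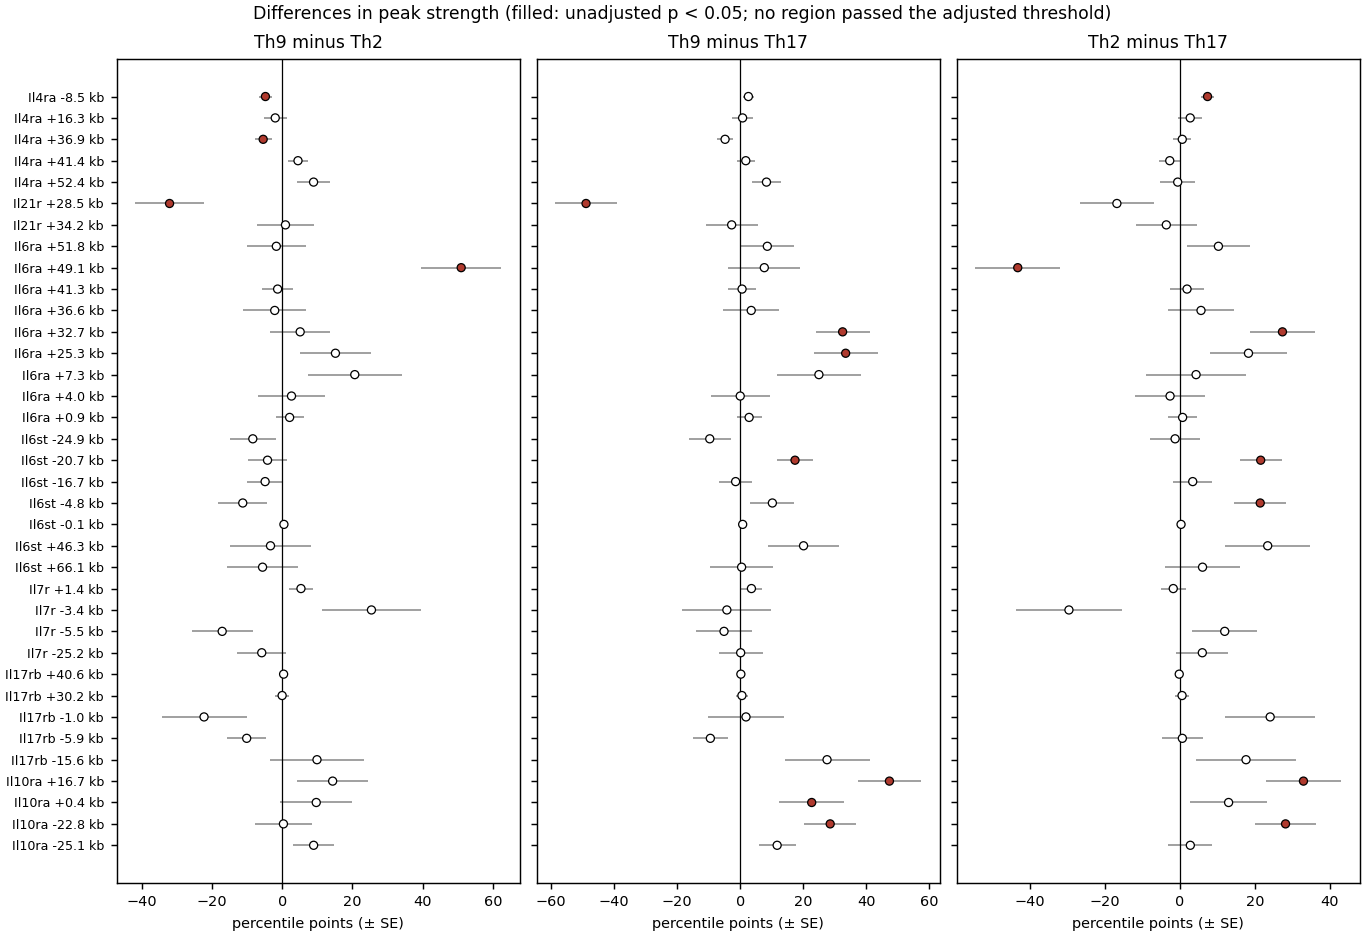
Difference between subset means in percentile points with its SE from limma (x axis) for the 36 receptor regions called in all 6 libraries (y axis), with 1 panel per contrast; filled points have an unadjusted p under 0.05. In each of the 2 panels against Th17, 6 of the 7 filled points lie to the right; the exceptions are the Il21r region at +28.5 kb (−49.0, Th9 minus Th17) and the Il6ra region at +49.1 kb (−43.3, Th2 minus Th17).

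The total length covered by peaks in each gene window also counts absent peaks, as 0 bp. The Il10ra window was covered over 6395 and 9115 bp (Th9), 5541 and 8245 bp (Th2) and 3277 and 3051 bp (Th17), and both Th17 values were below the other 4. On the log2 scale, after adding 500 bp and dividing by the Mb covered in each library, Th9 minus Th17 was 1.20 ± 0.36 (SE), a 2.3-fold ratio, with an adjusted p of 0.156 by limma over 21755 protein-coding genes. Th2 minus Th17 was 0.72 ± 0.36 (adjusted p = 0.602). Without Th9 replicate 1, the library with the highest fold limit, the Th9 minus Th17 value was 1.61 ± 0.32. At Il6ra it was 1.12 ± 0.27 in place of 0.69 ± 0.34 (limma, adjusted p = 0.433). Without Th9 replicate 3 they were 0.79 ± 0.32 and 0.25 ± 0.28. Each of these refitted values rests on 1 Th9 library, and the larger ones rest on Th9 replicate 3, whose list covered the fewest Mb (80.7).

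Il6ra was covered over 10482 and 15460 bp (Th9), 11233 and 13775 bp (Th2) and 8671 and 7393 bp (Th17), again with both Th17 values lowest. Il4ra was covered over 23561 and 32986 bp (Th9), 38262 and 49945 bp (Th2) and 23208 and 27281 bp (Th17), and Il21r over 21253 and 29280 bp, 31482 and 39031 bp, and 22838 and 24002 bp. In these 2 neighbouring windows both Th2 values were above the other 4 in bp, but the Th2 lists also covered the most of the genome. Per Mb covered, Th9 replicate 3 had 409 bp at Il4ra, between the Th2 values of 326 and 461, and 363 bp at Il21r, above the Th2 values of 268 and 361. The list of Th9 replicate 3 covered the least of the genome (80.7 Mb), so the division raised its values the most. The Th2 minus Th17 differences were 0.52 ± 0.32 (adjusted p = 0.765) and 0.30 ± 0.31 (adjusted p = 0.975). The windows share part of the Il4ra domain, so they are not independent.

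Il6st was covered over 6974 and 9293 bp (Th9), 10803 and 10279 bp (Th2) and 6296 and 7145 bp (Th17). Il7r was covered over 5098 and 5988 bp, 7898 and 8436 bp, and 3488 and 5866 bp. In bp Th2 was again above the rest in both. Per Mb covered, Th9 replicate 3 had 115 bp at Il6st, above the Th2 values of 91.9 and 95.0, and 74.2 bp at Il7r, between 67.2 and 77.9. Il17rb was covered over 4769 and 5771 bp (Th9), 5208 and 6149 bp (Th2) and 3798 and 3982 bp (Th17), with both Th17 values lowest. At Il6ra, Il17rb and Il10ra both Th17 values were also lowest per Mb covered. The share of all gene windows with that order was not counted.

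**Figure D5:**
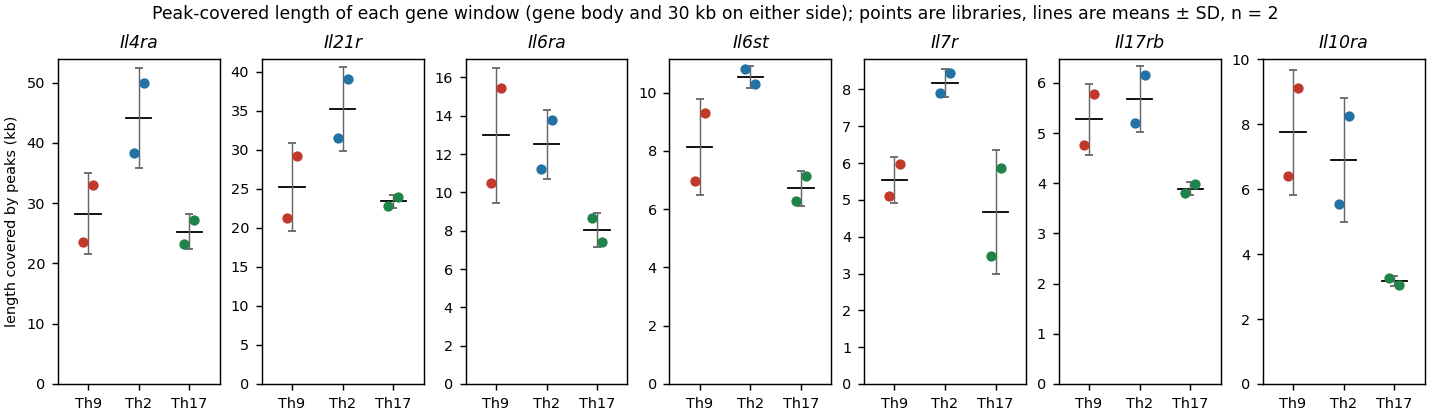
Length covered by peaks in kb (y axis, from 0) in the window of each of the 7 genes, by subset (x axis); points are libraries, lines are means and bars are SDs (n = 2). The lengths are not divided by the Mb covered in each library; on this scale Th2 values are highest at Il4ra, Il21r, Il6st and Il7r, an order that does not hold per Mb covered, and both Th17 values are lowest at Il6ra, Il17rb and Il10ra.

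No receptor window passed an adjusted p of 0.05 by limma, where 0.175% of all genes passed for Th9 against Th2, 0.602% for Th9 against Th17 and 0.308% for Th2 against Th17. At an unadjusted p under 0.05 there were 0, 1 and 0 of the 7, where 9.34%, 12.6% and 9.13% of all genes reached it. Th2 minus Th17 was above 0 in 7 of 7 windows, with a median of 0.35 beside 0.01 over all genes, and it stayed above 0 at each of them in every alternative tried. Th9 minus Th17 was also above 0 in 7 of 7, with a median of 0.31 beside 0.14, but it was below 0 at Il4ra (−0.21), Il21r (−0.26) and Il6st (−0.07) when Th9 replicate 3 was left out, and at Il7r (−0.07) without Th17 replicate 1. Th9 minus Th2 was above 0 in 3 of 7. The share of all genes above 0 was not counted for any contrast. The 7 windows are not independent, since those of Il4ra and Il21r share regions, and both contrasts against Th17 share its libraries.

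The same measure was taken for 21 other receptor and kinase genes that pair with or relate to these chains, such as Il2rg, Il10rb, Ifngr1 and the Janus kinase genes Jak1, Jak2, Jak3 and Tyk2. None of the 21 passed in any contrast by limma, and at an unadjusted p under 0.05 there were 1, 0 and 2. Their median difference was 0.11 for Th9 minus Th2, 0.13 for Th9 minus Th17 and 0.04 for Th2 minus Th17, beside 0.14, 0.14 and 0.01 over all genes.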

How the data were processed

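ATAC-seq was performed by the authors on Th9, Th2 and Th17 cells, 2 libraries each. Per the labels and methods, reads were trimmed with Trim Galore 0.4.3 and aligned to mm10 with bowtie2. Duplicates (Picard), poorly mapped and mitochondrial reads were removed by the authors, and MACS2 2.1.0 called broad peaks in each library separately, from paired fragments, with no control or local background. In that mode multi-copy DNA can be called. The cutoff and any Tn5 shift are not given in the sources used here. The deposited lists give each peak's fold enrichment (a linear ratio) and the −log10 of its p and q. The deposited display score was used nowhere.

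Folds were ranked within each list, since folds depend on depth. Percentiles depend in turn on the number of peaks in a list. Lists of equal length were tried for calls and covered lengths, not for percentiles. Genes came from GENCODE M21 on GRCm38.p6, whose chromosome lengths were checked against the lists. Percentiles of regions called in all 6 libraries, and covered lengths of gene windows, were fitted with limma 3.58.1 in R 4.3.3 (trend and robust empirical Bayes, subsets in one fit, two-sided, Benjamini-Hochberg over all regions or genes, threshold 0.05), with no replicate block. Other steps used Python 3.11.15 and pandas 2.3.3, and the fits were tested on simulated data. Regions named in full touch a member promoter, pass limma, or were called in all libraries of 1 or 2 subsets alone. Regions with an unadjusted p under 0.05 and those marked in the text were added after values were seen. Some other regions called in all 6 libraries, at Il4ra, Il6st, Il17rb and Il10ra, are also given although none of these rules selects them. The genes, lists and tests were chosen with earlier results of these data known. A gene of the cell type marker list is not reported here. Of the 7 genes, 6 matched a RefSeq promoter on GRCm38, and Il10ra did not. Alternatives were stricter peak filters, lists of equal length, other overlaps and windows, other scales and fits, and each library left out.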

Additional observations from a re-analysis of the deposited data

How the results depend on the processing

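The number of receptor regions, 90, fell to 57 at a −log10 q of at least 5, 32 at a fold of at least 4 and 58 with windows of 10 kb on either side, and was 172 with 100 kb. The 36 called in all libraries became 19, 6, 65 with 100 kb, and 18 when at least 50% of a region had to be covered. The 6 called in all Th9 and Th2 libraries alone became 0 at a fold of at least 4 and 11 with 100 kb. The number called in Th9 alone, 1, was 0 at a −log10 q of at least 5, 6 at a fold of at least 4, 2 at a fold of at least 2.2, 2 with at least 50% covered and 4 with 100 kb. The number called in Th2 alone, 3, was 1 at a fold of at least 2.2, 6 with at least 50% covered and 6 with 100 kb, and the number called in Th17 alone, 3, was 1, 0 and 1 under the filters on −log10 q, a fold of 4 and a fold of 2.2, and 5 with 100 kb. Leaving out each library in turn gave 81 to 90 regions in all, 36 to 38 called in all libraries, 6 to 8 in Th9 and Th2 alone, 1 to 10 in Th9 alone, 3 to 8 in Th2 alone and 3 to 4 in Th17 alone. Apart from the number in all, these counts could not fall, since fewer libraries had to agree.

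The count of 0 receptor regions past the threshold depended on the scale. For Th9 against Th2 it became 1 on quantile-normalized log2 folds. For Th9 against Th17 it became 5 on that scale, 3 on normal scores, 4 with an uncalled library set to percentile 0, and 1 at a fold of at least 2.2. For Th2 against Th17 it became 7, 1, 4 and 3 in the same order, and 2 with the −log10 q filter. Leaving out each library gave 0 for Th9 against Th2, 0 to 3 for Th9 against Th17 and 0 to 2 for Th2 against Th17, all gained without Th17 replicate 1. The gene windows gave 0 to 2 for Th9 against Th17, gained without Th9 replicate 1, and 0 in the other contrasts. The shares of all regions and genes that passed under these alternatives were not counted. The cause of these shifts was not tested.

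Differences between replicates 1 and 3 correlated between Th9 and Th2 at 0.168 for regions and 0.484 for genes. They did not for Th9 and Th17 (0.031 and 0.018) or Th2 and Th17 (−0.0098 and −0.0023), so the numbers were not taken to pair the libraries. With the replicate block, 4 regions passed for Th9 against Th17 and 6 for Th2 against Th17, and 1 gene window, Il10ra, passed for Th9 against Th17. The shares of all regions and genes that passed with the block were not counted.

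Of 522 refitted single differences, 461 kept their direction and side of the threshold, 41 newly passed it and 20 changed sign, all 20 for gene windows that did not pass. For Th9 minus Th17 at a fold of at least 2.2, Il4ra was −0.239, Il21r −0.238, Il6st −0.086 and Il7r −0.073, and Il21r was −0.0100 with 10 kb. For Th9 minus Th2, Il17rb was −0.160 when the −log10 q had to reach 5, −0.070 at a fold of at least 2.2 and −0.100 when not divided by the Mb covered, and Il7r was 0.219 with 10 kb. Leaving out a library gave −0.730 to 0.083 at Il4ra, −0.561 to 0.229 at Il21r, −0.089 to 0.787 at Il6ra, −0.415 to 0.312 at Il6st, −0.482 to 0.067 at Il7r and −0.078 to 0.510 at Il17rb for Th9 minus Th2, and −0.213 to 0.601 at Il4ra, −0.257 to 0.533 at Il21r, −0.068 to 0.659 at Il6st and −0.066 to 0.679 at Il7r for Th9 minus Th17, where Il10ra ranged from 0.793 to 1.61 and Il6ra from 0.248 to 1.12.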
